A study of Mus musculus with 50 samples.

Results

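Hepatocyte-sized cells of mouse liver sections were compared by the size of their nucleus. The livers had been imaged with the CosMx Spatial Molecular Imager, in which fluorescent probes are read in cycles on a section and each decoded spot is 1 transcript of 1 target, assigned to a segmented cell. A cell was taken as hepatocyte-sized when its outline covered 15000 to 50000 square pixels and it held at least 20 gene counts, which left 20578 of 52132 segmented cells (39.5%). Of these, 78 had a nucleus area of 0 and 20500 entered the comparison. The groups were chosen by nucleus area alone: within each tissue area the cells were divided into 3 equal groups by it, giving 6844 small-nucleus, 6816 middle and 6840 large-nucleus cells. Controls were wild-type mice and HIRA KO mice carried HIRA fl/fl alleles on a C57BL/6 background. Both groups were injected with the virus AAV8-Tbg-Cre when 6 months old, so Cre was present in the controls as well, and livers were taken 12 months later, at 18 months. The Tbg promoter is active in hepatocytes, so other liver cells kept the gene. HIRA is a chaperone that deposits histone variant H3.3 outside DNA replication. Hira was not among the 1000 gene targets (0 of 1000), and the deletion could not be checked from these transcripts.

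Hepatocytes of adult mice differ widely in DNA content. Many hold several genome copies, in 1 nucleus or in a pair of nuclei, and nuclear volume rises with DNA content. A thin section cuts nuclei at different heights, so the nucleus area in a section is a profile and not a volume, and DNA content was not measured here. The files give 1 nucleus area per cell and no number of nuclei, so 1 large nucleus and a pair of smaller ones cannot be told apart. RNAs also differ in where they lie: most mature mRNAs are in the cytoplasm, whereas Neat1, the noncoding RNA scaffold of nuclear paraspeckles, stays in the nucleus.

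The 50 fields of view fell into 6 tissue areas on 1 slide, 3 of control and 3 of HIRA KO, which served as replicates. The labels name no mouse, so p-values refer to these areas and not to mice. The permutation tests use the spread between areas. The gene tests (edgeR) share information on spread across genes. Their p-values, however small, therefore do not measure the spread of 1 gene between the 6 areas. Summed gene counts ranged from 105462 to 231821 for the small-nucleus cells of an area and from 193255 to 408972 for the large-nucleus cells. The slide carried the control sections on 1 side and the HIRA KO sections on the opposite side, so genotype and slide side cannot be told apart. The size window selected for hepatocytes without being limited to them. The 13 hepatocyte markers on the panel made up 67517 to 133856 CPM (counts scaled to one total of 1000000) in hepatocyte-sized cells and 39712 to 78992 CPM in smaller cells. Endothelial markers (12 genes) still made up 10496 to 12516 CPM and Kupffer cell and macrophage markers (8 genes) 7921 to 12631 CPM in hepatocyte-sized cells. More hepatocyte than other marker counts were held by 25.3%, 40.1% and 41.1% of the cells in the control areas and by 51.9%, 60.8% and 74.7% in the HIRA KO areas. "Hepatocyte-sized" is therefore used for the size only.

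The cut itself gave large-nucleus medians of 6300 to 7336 square pixels and small-nucleus medians of 2816 to 3248, a ratio of 2.10 to 2.58 that the division fixed. At the lower boundary of Control 1, for example, the largest small nucleus had 3692 square pixels and the smallest middle nucleus 3696. At its upper boundary the values were 5372 and 5376.

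Large-nucleus cells were larger cells and held more transcripts. Their median cell area was 30705 ± 2592 square pixels against 20887 ± 488 (SD, n = 6 areas), and they held 262 ± 66.6 gene counts per cell against 138 ± 39.6. Both were higher in 6 of 6 areas (exact sign-flip permutation test over areas, two-sided, p = 0.0312, the smallest that 6 areas allow, adjusted p = 0.0375 over 24 readouts). The size window and the count minimum bound both measures. Counts per cell were 1.76 to 2.10 times as high in large-nucleus cells, depending on the area. The extra transcripts lay mainly in the nucleus, which the division by nucleus area largely fixed. Per 1000 square pixels of nucleus there were 19.9 ± 4.69 counts in large and 15.7 ± 3.40 in small nuclei (ratio 1.17 to 1.43), and per 1000 square pixels outside the nucleus 5.60 ± 1.80 and 5.28 ± 1.69 (ratio 1.01 to 1.18). Each was higher in 6 of 6 areas (exact permutation test, adjusted p = 0.0375). The difference outside the nucleus, 0.323 counts, was 0.180 without HIRA KO 1, and with at least 50 counts per cell it no longer passed (adjusted p = 0.107). The share of transcripts placed in the nucleus was 52.6% ± 5.31 in large-nucleus and 30.3% ± 3.97 in small-nucleus cells. The nucleus covered 23.8% and 13.2% of the cell there, a difference that the division largely fixed.

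The stains moved with nucleus size as well. The DNA stain DAPI, which also serves to outline nuclei, summed over the cell to 77.7 ± 17.4 in large-nucleus and 34.4 ± 5.87 in small-nucleus cells (intensity summed over pixels, in units of 1000000), 2.02 to 2.40 times as much. The division by nucleus area largely fixed this difference in summed DAPI, so the test below adds no support to it. The brightest DAPI pixel was 14553 ± 2885 against 11257 ± 2142. This maximum is taken over more nuclear pixels in large-nucleus cells, so the test below adds no support to it either. The stain for B2M, the light chain of MHC class I, was dimmer in large-nucleus cells, at 2721 ± 436 against 3188 ± 439 intensity units. PanCK, a stain for epithelial keratins, was 2777 ± 510 against 2968 ± 506, and CD3, a T cell stain, 631 ± 114 against 665 ± 116. Each of these differences had 1 direction in 6 of 6 areas (exact permutation test, adjusted p = 0.0375). CD45, a leukocyte stain, was brighter in 4 of 6 areas (exact permutation test, adjusted p = 0.438). Nuclei of the large group had a lower aspect ratio, 0.829 ± 0.00801 against 0.877 ± 0.0186 (adjusted p = 0.0375), although with means over cells in place of medians this did not pass (adjusted p = 0.107).

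Large-nucleus cells were more frequent around large-nucleus cells than around small-nucleus cells. Among the 5 nearest hepatocyte-sized cells, 36.1% ± 1.14 had large nuclei around a large-nucleus cell and 30.2% ± 0.787 around a small-nucleus cell (SD, n = 6 areas), higher in 6 of 6 areas (exact permutation test, adjusted p = 0.0375). The difference of 5.86 percentage points was 4.52 when the groups were formed within each field of view, and 6.98 at matched cell area.

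To ask which transcripts differ with nucleus size, counts were summed per area and group and tested with the area as a block. In large-nucleus cells 121 of 998 genes (12.1%) took a higher share of the counts and 126 (12.6%) a lower share (edgeR quasi-likelihood test, Benjamini-Hochberg adjusted p under 0.05). Changes ran from 0.18 to 1.06 on the log2 scale upward and from -0.17 to -0.68 downward. The direction held in all 6 areas for 74 of the higher and 93 of the lower genes. The mean of the middle group, which entered no test, lay between the other two for 111 of the higher and 110 of the lower genes. Area by area this order was less regular. The middle group lay between in 5 or 6 areas for only 19 of the higher and 37 of the lower genes. With scaling by library size alone 173 genes were higher and 85 lower, so the split between the directions depends on the scaling. DESeq2 called 43 and 57. All values are relative to the total: per cell, 993 of 998 genes had more counts in large-nucleus cells in all 6 areas, including 122 of the 126 genes with a lower share. "Lower" below means a lower share of counts.

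**Figure D1:**
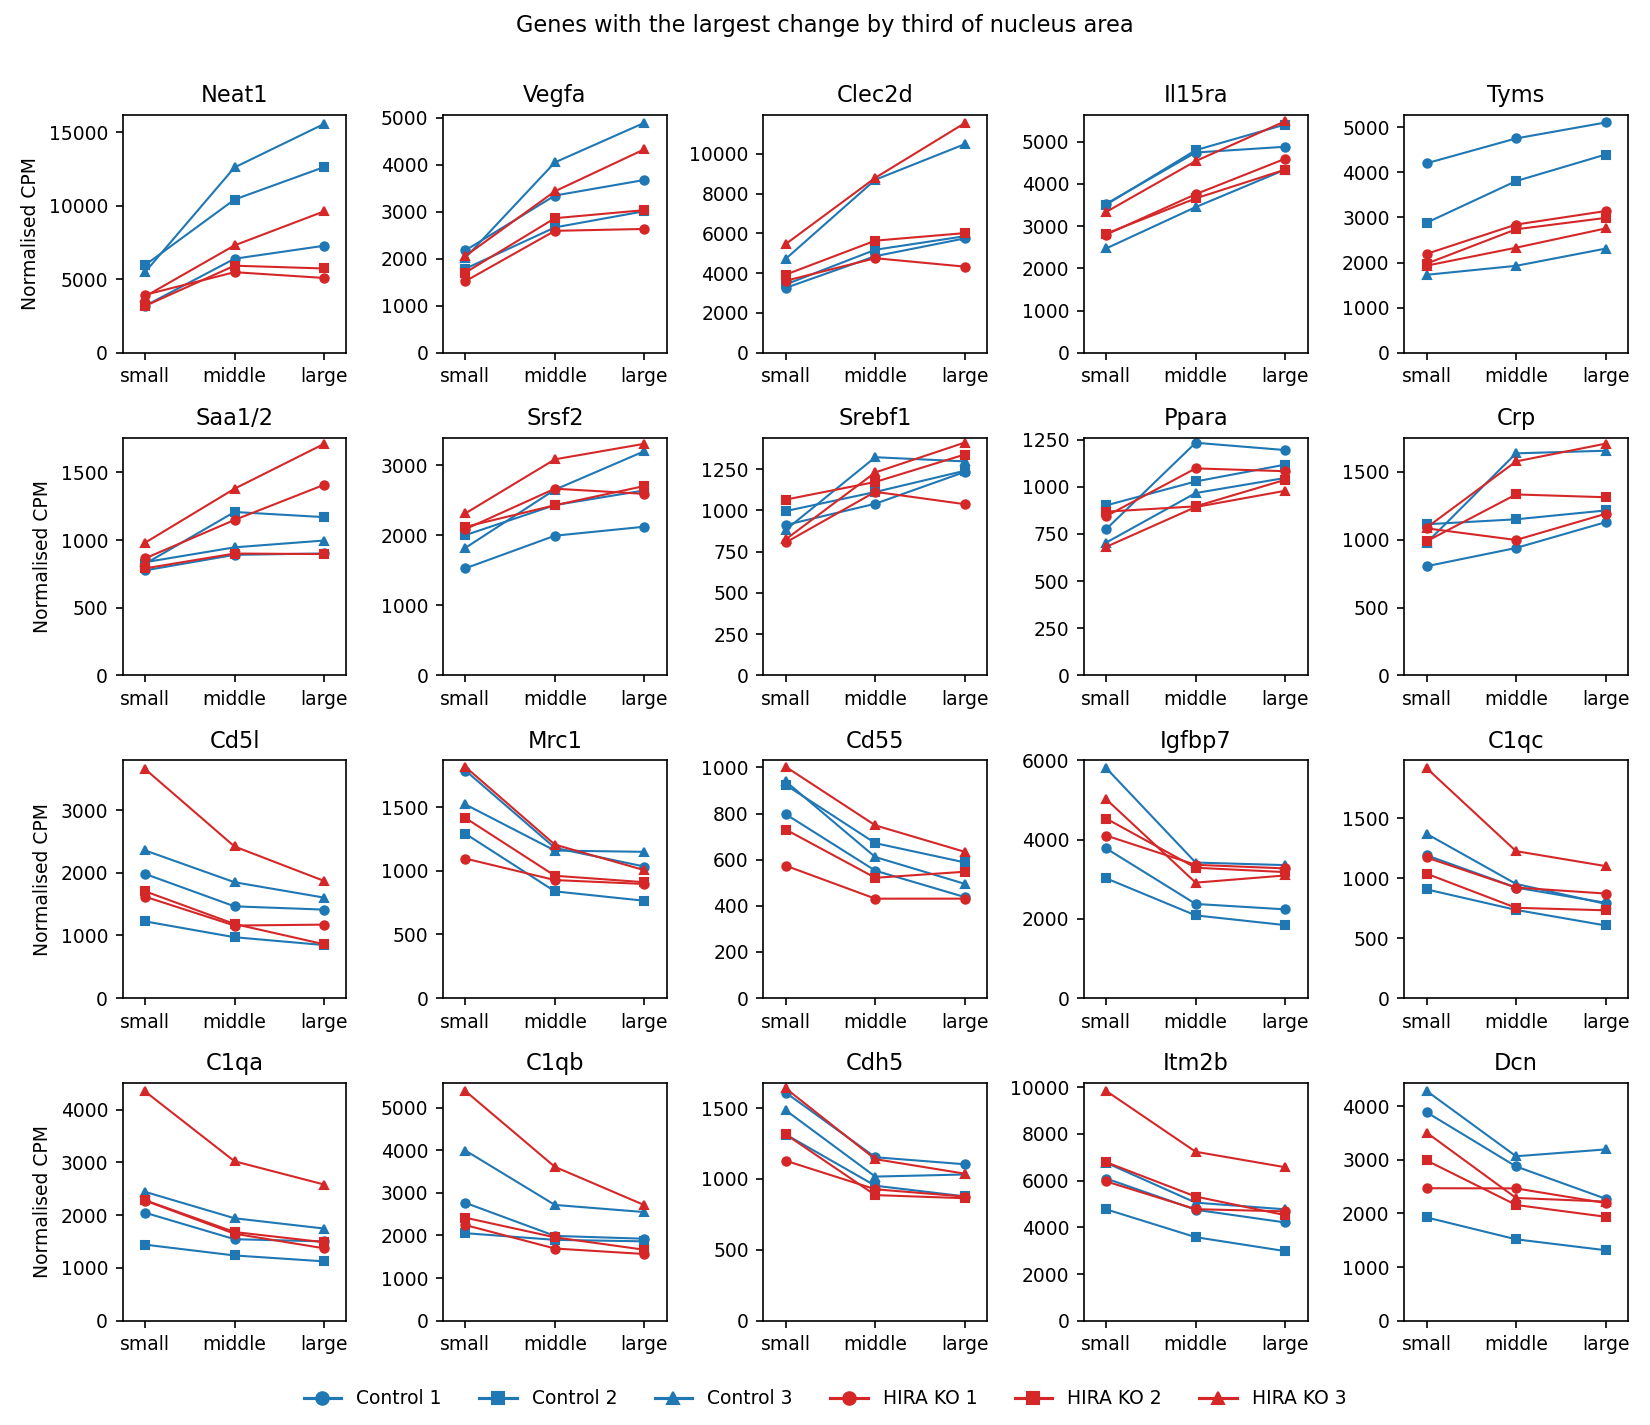
Normalised CPM (vertical axes, starting at 0) of the 10 genes with the largest increase (top 2 rows) and the 10 with the largest decrease (bottom 2 rows) from small-nucleus to large-nucleus cells, among called genes with 1 direction in 6 areas and counts above the highest negative probe, with the middle group between them. Each line is 1 tissue area, control in blue and HIRA KO in red. Neat1 rose in all 6 areas, to 15575 CPM in Control 3, and Cd5l fell in all 6.

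Neat1 had the largest increase. In small-nucleus cells it stood at 3189, 5967 and 5485 normalised CPM in the control areas and at 3940, 3184 and 3828 in the HIRA KO areas. In large-nucleus cells it stood at 7283, 12639 and 15575 in control and at 5091, 5737 and 9625 in HIRA KO. All areas were higher with large nuclei, with a log2 change of 1.06 (SE 0.085, adjusted p = 2.05e-32, edgeR). The gene lies on chromosome 19, from 5824708 to 5845478 on the minus strand (GRCm38, GENCODE vM21).

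Vegfa (chromosome 17, 46016993 to 46032369, minus strand), the growth factor that acts on endothelial cells, followed. Its small-nucleus values were 2176, 1787 and 2019 normalised CPM in control and 1522, 1705 and 2057 in HIRA KO. Its large-nucleus values were 3673, 3008 and 4889 in control and 2632, 3032 and 4326 in HIRA KO, and the lowest of them exceeded the highest small-nucleus value. The log2 change was 0.92 (SE 0.078, adjusted p = 7.49e-29, edgeR).

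Clec2d (chromosome 6, 129180615 to 129186534), a C-type lectin-like membrane protein, stood at 3261, 3435 and 4724 normalised CPM in control and 3618, 3929 and 5466 in HIRA KO with small nuclei. With large nuclei it stood at 5748, 5858 and 10487 in control and 4328, 6014 and 11545 in HIRA KO. Control 3 and HIRA KO 3, which share a row of the slide, were highest in both groups. The log2 change was 0.79 (SE 0.083, adjusted p = 5.54e-19, edgeR). Il15ra, the receptor chain that presents interleukin 15, changed by 0.66 (SE 0.080, adjusted p = 1.37e-14), from a range of 2470 to 3526 to one of 4337 to 5483 normalised CPM, with no overlap.

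The other genes of this group changed less. Tyms, thymidylate synthase, changed by 0.50 on the log2 scale, and Srsf2, a splicing factor, by 0.48. Saa1/2, the acute phase serum amyloid genes read by 1 target, changed by 0.48 and Crp, C-reactive protein, by 0.42. Srebf1, a regulator of lipid synthesis, changed by 0.46 and Ppara, the nuclear receptor of fatty acid oxidation, by 0.43. Ppara ranged from 682 to 902 normalised CPM with small and from 979 to 1195 with large nuclei, without overlap. Each of these 6, like the genes named above, was higher in 6 of 6 areas, which the rule for naming them required. At matched gene counts per cell Saa1/2 was at 0.023 and was not called (adjusted p = 0.923).

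Genes with more of their RNA in the nucleus took higher shares, a relation that the division by nucleus area largely fixes, since the nucleus covers more of a large-nucleus cell. In the middle group, whose cells entered neither sum, 91.7% of Neat1, 79.4% of Vegfa, 78.8% of Il15ra, 75.3% of Clec2d and 70.2% of Tyms transcripts were placed in the nucleus, against 43.7% of all transcripts. Neat1 had the highest nuclear share of the 998 genes. The median nuclear share was 58.0% for the 121 higher genes (lower quartile 54.8%), 35.2% for the 126 lower genes (lower quartile 31%) and 45.9% for the 751 genes not called. Across the 998 genes the log2 change and the nuclear share had a Pearson r of 0.786 and a Spearman rho of 0.763. This is a description and supports no relation of its own: the division sets much of it, and the genes share the same cells and libraries and are not independent.

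**Figure D2:**
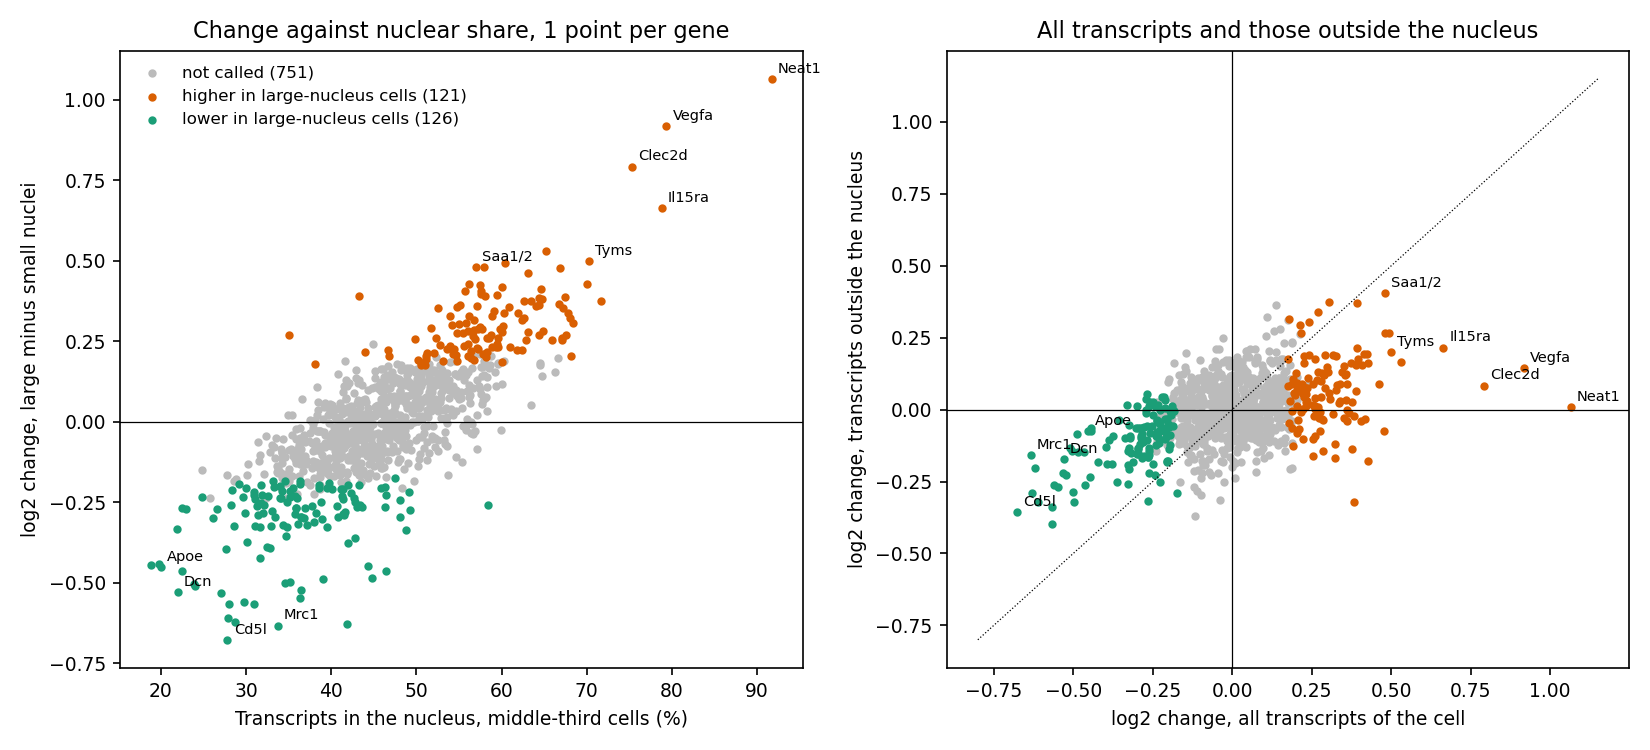
Left, the log2 change from small-nucleus to large-nucleus cells against the share of each gene's transcripts placed in the nucleus of middle-group cells (%), 1 point per gene (998 genes; 121 higher in orange, 126 lower in green, 751 not called in grey). Right, the log2 change over all transcripts of the cell against that over transcripts outside the nucleus, with the line of equality dotted; Neat1 lies at 1.06 and 0.0094.

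Outside the nucleus few genes passed, and the median changes were smaller. With transcripts outside the nucleus alone, 2 genes (0.2%) were higher and 11 (1.1%) lower (edgeR, adjusted p under 0.05). The median log2 change of the 121 higher genes was 0.28 over the whole cell and 0.066 outside the nucleus, and that of the 126 lower genes -0.27 and -0.099. Both sets were chosen by their whole-cell change, so smaller values elsewhere are partly set by that choice. Sums outside the nucleus also hold fewer counts, which can lower the number of genes called. Neat1 stood at 0.0094 (adjusted p = 0.993), Vegfa at 0.14 (adjusted p = 0.612) and Clec2d at 0.083 (adjusted p = 0.896) there. The genes higher outside the nucleus were Saa1/2, at 0.41 (adjusted p = 0.00954), and Igkc, an immunoglobulin light chain, at 0.31 (adjusted p = 0.0288), named after its value was seen. Among the lower genes there were the macrophage genes Cd5l, C1qa, C1qb, C1qc and Marco and the endothelial cadherin Cdh5.

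Within the nucleus the leading genes were not only more numerous but denser. All nuclear transcripts together were also denser in large nuclei, 1.17 to 1.43 times. Being denser in 6 of 6 areas was not particular to the leading genes, since the tubulin gene Tubb5, not called, was so as well. Nuclear Neat1 counts per cell ranged from 0.272 to 0.739 with small nuclei and reached 3.87 with large ones, 2.67 to 6.86 times as many in the same area. Per unit of nucleus area Neat1 was 1.13 to 2.34 times, Vegfa 1.75 to 2.57 times and Clec2d up to 2.37 times as dense, each denser in 6 of 6 areas. Over transcripts in the nucleus alone, the log2 change was 0.56 for Neat1, 0.67 for Vegfa, 0.59 for Clec2d and 0.53 for Ppara, all past the threshold, whereas Il15ra was at 0.27 (adjusted p = 0.0651) and Tyms at 0.22 (adjusted p = 0.146). Outside the nucleus Neat1 counts per cell were 0.0635 to 0.227 with small and 0.0794 to 0.279 with large nuclei.

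Genes of macrophages and endothelial cells led the lower shares. Cd5l, a secreted protein of Kupffer cells, stood at 1982, 1225 and 2357 normalised CPM in control and 1619, 1705 and 3656 in HIRA KO with small nuclei. With large nuclei it stood at 1412, 847 and 1604 in control and 1173, 860 and 1871 in HIRA KO. It was lower in all 6 areas, which the rule for naming it required, although the groups overlapped across areas. Its log2 change was -0.68 (SE 0.070, adjusted p = 1.52e-19, edgeR).

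Mrc1, the mannose receptor of sinusoidal endothelial cells and macrophages, changed by -0.63 (SE 0.067, adjusted p = 1.05e-18), from 1096 to 1816 normalised CPM with small nuclei to 765 to 1149 with large ones. The complement genes C1qa, C1qb and C1qc changed by -0.57, -0.56 and -0.61. Cdh5, an endothelial junction protein, changed by -0.55, Igfbp7, a secreted binding protein of vessels, by -0.62, and Dcn, the matrix proteoglycan of stellate cells and fibroblasts, by -0.53. Cd55, a complement inhibitor, changed by -0.63 and Itm2b, a membrane protein, by -0.53. In counts per cell, Mrc1 was 1.09 to 1.53 times as high in large-nucleus cells and Cd5l 0.952 times or more. Cd5l density outside the nucleus was 0.647 to 0.991 times that of small-nucleus cells, lower in 6 of 6 areas.

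As marker lists, Kupffer cell and macrophage genes were lower for 7 of 8 members and higher for none, with a median log2 change of -0.53 beside -0.0032 over all genes. Over all genes 12.1% were higher and 12.6% lower, the shares to set beside the counts of this and every later list. Their summed level was 8872 to 17140 CPM in small-nucleus and 7071 to 10387 CPM in large-nucleus cells. Endothelial genes were lower for 7 of 12 (median -0.28), including Kdr at -0.49 and Eng at -0.46, receptors of vessel growth, and their sums were 11254 to 14783 and 9919 to 11793 CPM. No marker of these lists was at 0 counts, and how far RNA of neighbouring cells enters these sums was not tested. Among cells with more hepatocyte than other marker counts, 58 genes (5.81%) were higher and 69 (6.91%) lower, and Neat1 was at 1.02, Vegfa at 0.88, Cd5l at -0.43, Mrc1 at -0.59 and Dcn at -0.18 (adjusted p = 0.154). Cd5l, Mrc1 and Dcn are among the markers that make this choice of cells, so their values there are partly set by it.

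Other non-hepatocyte lists moved less. Of 8 monocyte and dendritic genes 3 were lower (median -0.14), led by the class II chaperone Cd74 at -0.26. Of 13 stellate genes 2 were lower, Dcn and the growth factor Hgf at -0.32 (median -0.11). Of 17 T and NK genes tested, with Cd3e at 0 counts, 3 were higher and Gzma, a granzyme, was lower at -0.27 (median 0.060). Of 11 B and plasma cell genes 5 were higher (median 0.15), of which Igha, an antibody gene at 0.39, was not called without HIRA KO 2 (0.14, adjusted p = 0.352) and turned to -0.73 at matched gene counts per cell (adjusted p = 0.000301, edgeR). Of 13 cholangiocyte genes 3 were higher, namely Sox9, Spp1 and Cd24a (median 0.10). None of 7 neutrophil (median 0.022), 6 smooth muscle and myofibroblast (median -0.0070) or 2 erythroid genes (median -0.12) was called.

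**Figure D3:**
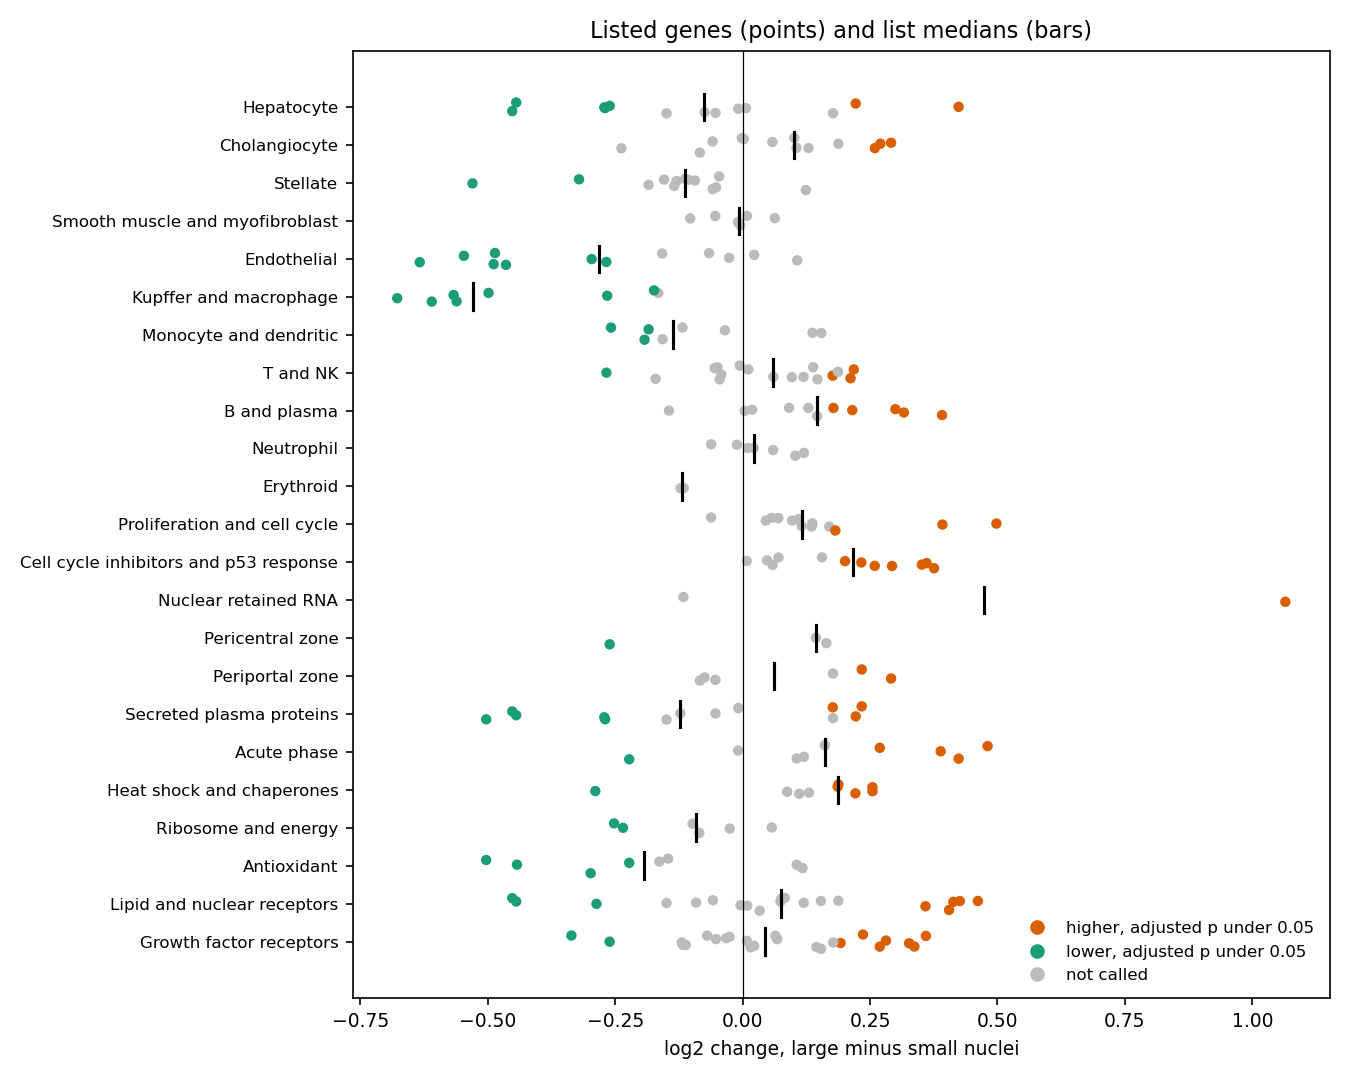
The log2 change from small-nucleus to large-nucleus cells (horizontal axis) of each gene on 23 lists (points; orange higher, green lower, grey not called at an adjusted p of 0.05), with the list median as a black bar. Kupffer cell and macrophage genes have the lowest median, -0.53.

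Hepatocyte genes did not share 1 direction. Of 13 hepatocyte markers 5 were lower and 2 higher (median -0.075). Apoe, an apolipoprotein, was lower in 6 of 6 areas. It ranged from 10777 to 21184 normalised CPM with small and from 6891 to 14377 with large nuclei, a log2 change of -0.45 (SE 0.088, adjusted p = 6.99e-06, edgeR). Apoc1 was at -0.44, and Ttr and Gc, the carriers of thyroxine and vitamin D, were both at -0.27. The 2 higher markers were Crp and Azgp1, a secreted glycoprotein, at 0.22. In the middle group 20.02% of Apoe transcripts were nuclear against 57.5% of Crp transcripts.

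Of 13 genes of secreted plasma proteins 5 were lower and 3 higher (median -0.12). Selenop, the selenium carrier of plasma, had the largest decrease among them, -0.50. Of 8 antioxidant genes 4 were lower (median -0.19), namely Selenop, the peroxidase Gpx1 at -0.44, the dismutase Sod1 at -0.30 and the metallothionein Mt1 at -0.22. Both energy genes that passed, the ATP synthase subunits Atp5b and Atp5e, were lower, at -0.25 and -0.23 (2 of 6 genes, median -0.092). Of 9 acute phase genes 4 were higher and Mt1 lower (median 0.16).

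Regulators and receptors went in both directions, beside 12.1% higher and 12.6% lower over all genes. Of 20 lipid and nuclear receptor genes 5 were higher and 3 lower (median 0.075). Among the higher ones were Srebf1, Ppara, Rora at 0.41 and Rxrb at 0.36, and the lower ones were Apoe, Apoc1 and the fatty acid transporter Cd36. Of 24 growth factor and cytokine receptors 7 were higher and 2 lower (median 0.043). Egfr, the receptor of epidermal growth factor, rose in 6 of 6 areas by 0.36, and the insulin receptor Insr by 0.33. Notch2 rose by 0.34, and Fgfr2 fell by 0.34 on the log2 scale.

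Of 12 cell cycle inhibitor and p53 response genes 7 were higher and none lower (median 0.22), where 12.1% of all genes were higher. Outside the nucleus 0 of the 12 were called (median 0.034), 4 of the 12 were higher among cells with more hepatocyte than other marker counts, and 4 did not exceed the highest negative probe. The 7 were Chek2 at 0.38, Gdf15 at 0.36, Bax, a p53 target that promotes cell death, at 0.35, Trp53 at 0.29, Fas at 0.26, Gadd45b at 0.23 and Rb1 at 0.20. Cdkn1a, the p21 gene, was at 0.071 and was not called. Bax had 67.2% of its transcripts in the nucleus of middle-group cells and was at -0.030 outside the nucleus (adjusted p = 0.990). Of 13 proliferation genes 3 were higher (median 0.12), Tyms, Birc5 and Stmn1, whereas Mki67 at 0.070, Top2a at 0.12 and Pcna at 0.17 were not called. Of 9 heat shock and chaperone genes 5 were higher and Hsp90ab1 was lower at -0.29 (median 0.19). For 36 of the 121 higher genes and 24 of the 126 lower genes the mean count per area did not exceed that of the highest negative probe, 303 counts, and 332 of the 998 genes were at that level. Negative probes, which match no transcript, fell from 5.30 ± 0.387 to 4.44 ± 0.499 per 1000 gene counts with large nuclei, in 6 of 6 areas (exact permutation test, adjusted p = 0.0375). Per unit of cell area they rose in 6 of 6 areas, 1.07 to 1.22 times (exact permutation test, adjusted p = 0.0375).

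Zonation markers gave no common direction. Glul, the glutamine synthetase of hepatocytes around the central vein, was at -0.26 (adjusted p = 0.00633), but it was higher in 2 of 6 areas and was not called without Control 2 (adjusted p = 0.218) or without HIRA KO 3 (adjusted p = 0.150). Lgr5 and Rnf43, the other pericentral targets, were at 0.16 and 0.14 and were not called (list median 0.14). Of 6 periportal genes 2 were higher, Sox9 and Igf1 (median 0.062). Of 2 RNAs known to be retained in the nucleus, Neat1 rose whereas Meg3 was at -0.12 and was not called (median 0.47). In the middle group 44.8% of Meg3 transcripts were nuclear.

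The nucleus sizes themselves were compared between genotypes, which the division within areas did not use. The median nucleus area was 4556, 4564 and 4586 square pixels in the control areas and 4756, 5052 and 4928 in the HIRA KO areas. Every HIRA KO area lay above every control area, with means of 4569 ± 15.5 and 4912 ± 149 (SD, n = 3 each), a difference of 343 square pixels or 7.51%. The exact permutation test gave p = 0.1, the smallest that 3 against 3 areas allow, and an adjusted p of 0.236 over 26 measures, so the design cannot pass 0.05. Away from the median the areas overlapped: the percentiles 10, 25, 75 and 90 of nucleus area did (exact permutation test, p = 0.2 to 0.3), as did the share of cells below the lower boundary over all areas (3876 square pixels), which was 32.9% to 38.9% in control and 27.9% to 33.2% in HIRA KO (exact permutation test, p = 0.2). Within the 3 rows of the slide the HIRA KO area was larger by 200, 488 and 342 square pixels. Field medians overlapped: they ran from 3780 to 5078 in control and from 4064 to 5388 in HIRA KO, and 10 HIRA KO fields lay above the highest control field. Among cells with more hepatocyte than other marker counts the medians were 4528, 4048 and 4624 in control and 4640, 4876 and 5100 in HIRA KO. Their means were 4400 ± 309 and 4872 ± 230 (exact permutation test, p = 0.1). The ranges did not overlap but nearly met, at 4624 in Control 3 and 4640 in HIRA KO 1.

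**Figure D4:**
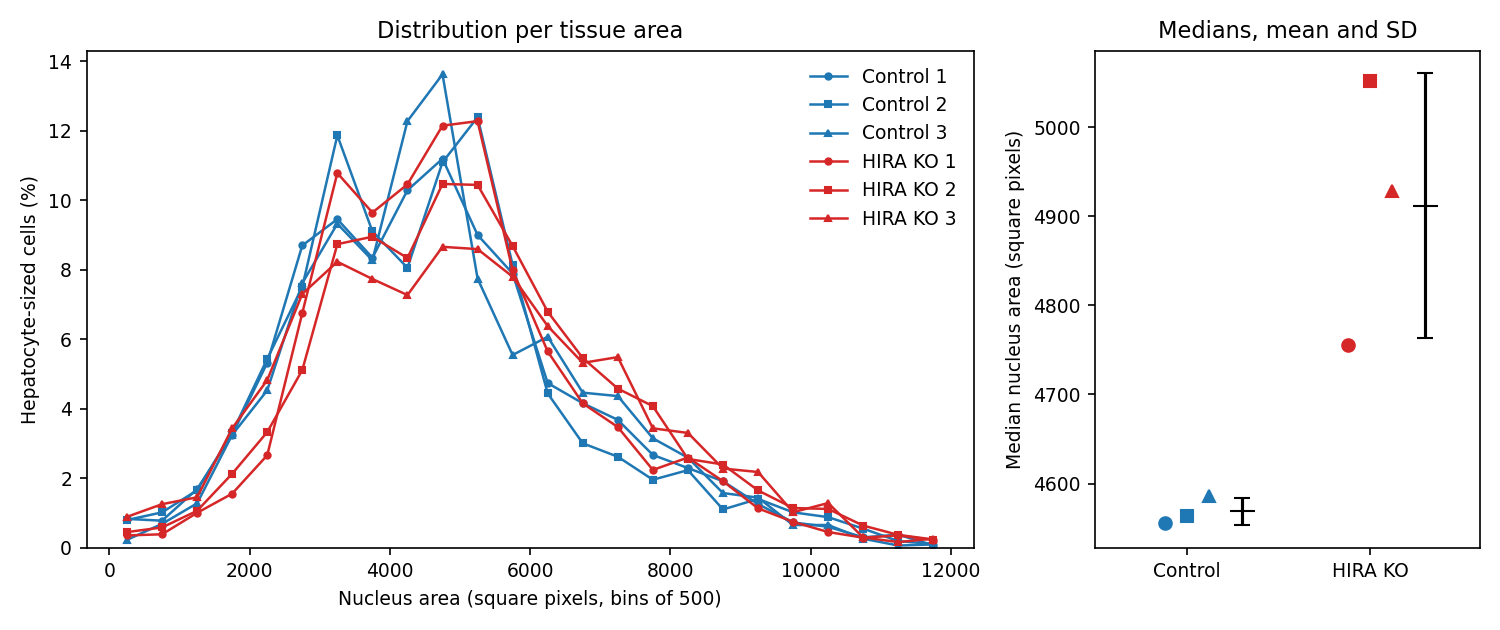
Left, the share of hepatocyte-sized cells (%) by nucleus area in bins of 500 square pixels, 1 line per tissue area (control blue, HIRA KO red). Right, the median of each area with the mean and SD of each genotype in black (axis not from 0); the control medians lie between 4556 and 4586 and the HIRA KO medians between 4756 and 5052.

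With bins of 500 square pixels, 1 peak was sought in each of 2 fixed ranges of nucleus area. Each area had a bin in both that stood above a dip between them, although some dips were shallow. In control the lower peak lay at 3000 to 3500 square pixels in all 3 areas and the upper peak at 4500 to 5000 in Control 1 and Control 3 and at 5000 to 5500 in Control 2. In Control 2, which had the deepest dip, 11.9% of cells were in the lower peak, 8.06% in the dip between 4000 and 4500, and 12.4% in the upper peak. In HIRA KO 2 these shares were 8.95%, 8.34% and 10.5%, and in HIRA KO 3 8.23%, 7.27% and 8.66%. The peaks were also there in 6 of 6 areas with bins of 400 and in 5 of 6 with bins of 600, Control 3 being the exception. They were noticed after the data were seen, and no test was made. Above the upper boundary over all areas, 5520 square pixels, lay 27.4% to 30.9% of control and 31.6% to 40% of HIRA KO cells (exact permutation test, p = 0.1). The spread of nucleus area relative to its mean was 43.2% ± 1.49 and 43.2% ± 3.11 (exact permutation test, p = 0.9).

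Cell area was compared in the same way. Control cells had a median outline of 25657 ± 887 square pixels and HIRA KO cells one of 24464 ± 1948, and the 2 ranges overlapped (p = 0.5, exact permutation test). The nucleus covered 17.6% ± 0.391 and 19.7% ± 1.16 of the cell at the median, without overlap (p = 0.1, exact permutation test). At matched cell area the difference in mean nucleus area was 500 square pixels, and in 9 of 10 bins of cell area all HIRA KO areas lay above all control areas. Bin differences ranged from 450 to 608 square pixels. At the smallest cell areas HIRA KO 3 lay with the controls: in the lowest bin its mean was 3255 square pixels, against 3231 to 3294 in the control areas and 3959 and 3981 in HIRA KO 1 and HIRA KO 2. In the next bin it was barely above Control 1, at 3535 against 3531, and in the one after at 4080 against 4079. Both bins count among the 9.

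**Figure D5:**
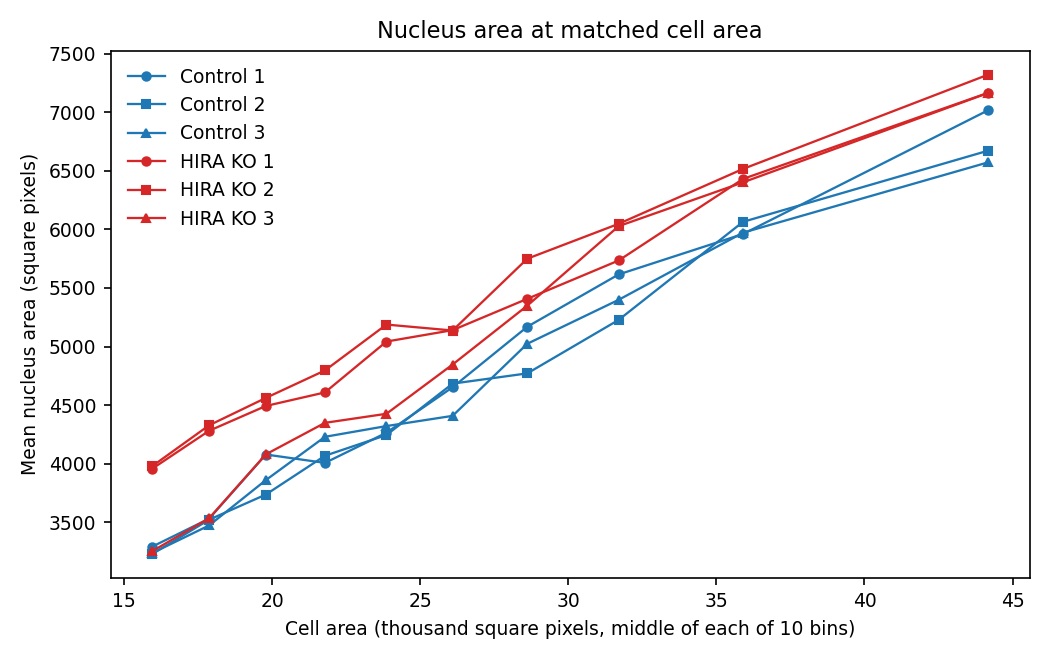
Mean nucleus area (square pixels) against cell area (square pixels, divided by 1000) in 10 bins, 1 line per tissue area, control in blue and HIRA KO in red. Nucleus area rises with cell area in all 6 areas, and in 9 of 10 bins the 3 HIRA KO values lie above the 3 control values. At small cell areas HIRA KO 3 lies level with or barely above Control 1.

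Several other measures were set beside this difference. In smaller cells, under 15000 square pixels, the median nucleus area was 2039 ± 45.1 in control and 2121 ± 199 in HIRA KO, with overlap (exact permutation test, p = 0.5). The ratio of hepatocyte-sized to smaller cells was 2.24 ± 0.0522 and 2.33 ± 0.251 (exact permutation test, p = 0.8), so a difference particular to hepatocyte-sized cells was not shown. Summed DAPI per cell was 52.2 ± 13.9 and 52.9 ± 7.78 in the same units (exact permutation test, p = 1.0). Gene counts per cell were 154 ± 39.8 and 226 ± 33.6 (exact permutation test, p = 0.2), and the share of hepatocyte-sized cells in an area was 45.5% ± 5.71 and 35.1% ± 5.38, without overlap (p = 0.1, exact permutation test). Their part in the difference in nucleus area was not tested.

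Whether the change with nucleus size differs between genotypes was tested as an interaction. It passed for 0 of 998 genes (0%) with edgeR and for 0 with DESeq2, with 51 and 4 genes at an unadjusted p under 0.05. For Neat1 the change was higher in all 3 areas of each genotype, with a mean of 1.26 in control and 0.85 in HIRA KO, and the difference between genotypes did not pass (log2 difference -0.39, adjusted p = 0.846, edgeR). Without HIRA KO 1 the haemoglobin target Hba-a1/2 passed, and without HIRA KO 3 Gpnmb, a glycoprotein of lipid-loaded macrophages, and Igha did. These were named after their values were seen.

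HIRA KO and control were also compared within each nucleus-size group. In large-nucleus cells 1 of 998 genes (0.1%) passed, Igha, the constant region of the IgA antibody of plasma cells. It stood at 389, 391 and 414 normalised CPM in control and at 993, 1171 and 722 in HIRA KO, without overlap, a log2 change of 1.29 (SE 0.16, adjusted p = 0.000504, edgeR). The highest negative probe had 132, 194 and 127 counts in the control large-nucleus cells, and Igha had fewer in each area. The change is therefore set against a control level at background. Igha exceeded that probe as a mean over the areas of both genotypes. The 11 B and plasma cell markers together were 7068 to 8728 CPM in control and 7691 to 10336 CPM in HIRA KO large-nucleus cells, and none was at 0. Their part in the result was not tested. Igha was not called among cells with more hepatocyte than other marker counts, at 0.54 (adjusted p = 0.231), but Igha is itself one of the other markers, so this choice of cells removes cells with much Igha. With DESeq2, 15 genes passed, each with its higher level in HIRA KO, and it gave Igha no adjusted p. With a block for the row of the slide, edgeR called 17.

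In small-nucleus cells 0 genes (0%) passed with edgeR, with 83 at an unadjusted p under 0.05, and 9 with DESeq2. Vtn, vitronectin, had the lowest p. It stood at 1242, 2165 and 1653 normalised CPM in control and at 3096, 3433 and 3679 in HIRA KO (log2 difference 1.01, adjusted p = 0.182, edgeR), without overlap. With the slide row as a block Vtn passed (1.03, adjusted p = 0.0225), as did Gpnmb (0.78, adjusted p = 0.0225), which was named after its value was seen. With scaling by library size alone the median of all genes shifted from -0.0058 to -0.11 in large-nucleus cells and from -0.0048 to -0.15 in small-nucleus cells. Secreted plasma protein genes had a median log2 difference of 0.39 in large-nucleus and 0.60 in small-nucleus cells, and 0 of 13 passed in either group.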

How the data were processed

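The deposited counts are decoded transcripts of each target in each cell, not normalized, from a 1000-plex panel on FFPE sections of the median lobe, a table of single transcripts with their compartment, and a cell table. Per the file headers, the cell table holds stain intensity, cell and nucleus area in pixels, positions, and scores of shape (aspect ratio, eccentricity). Pixel size, segmentation settings and software versions are not given in the sources used here. Cell outlines were not used.

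Consecutive fields of view of 1 genotype formed 6 tissue areas; the study's methods give 3 biological replicates, and the labels name no mouse. Counts were summed per area and nucleus-size group. Negative probes and transcripts outside cells (6.89%) entered no sum. edgeR 4.0.16 (R 4.3.3; TMM, filterByExpr, which removed the 2 targets with 0 counts) tested 998 genes with area as a block for large against small nuclei, and its adjusted p-values were Benjamini-Hochberg values over all genes. DESeq2 1.42.0 and limma 3.58.1 (voom) were alternatives. The tests were checked on simulated counts. Printed CPM are TMM-scaled, sums of marker lists unscaled. Readouts were compared by exact permutation tests (scipy 1.17.1). Named genes are up to 10 per direction with the largest change past the threshold, in 1 direction in 6 areas and above the highest negative probe, and list members with the lowest p; other named genes are list members given for their counts. The members and lists were chosen with earlier results of these data known.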

Additional observations from a re-analysis of the deposited data

How the results depend on the processing

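The number of genes called between large and small nuclei was 247 and was within 1.5 times of that with limma-voom, library-size scaling, no filter, other cell windows and matched cell area. It was 100 with DESeq2, 127 among cells with more hepatocyte than other marker counts, 13 outside the nucleus, 118 in the nucleus, 130 in control alone, 71 in HIRA KO alone and 0 outside the nucleus among the marker-majority cells, where 54 genes were at an unadjusted p under 0.05 (edgeR). Leaving out 1 area gave 194 to 232 genes. All 20 genes with the largest changes stayed called without any 1 area and with DESeq2, 19 did among marker-majority cells and 7 outside the nucleus.

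The genotype difference of the change gave 0 to 2 genes without 1 area and 1 among marker-majority cells. HIRA KO against control in large-nucleus cells gave 15 with DESeq2, 17 with the slide row as a replicate block, and 1 to 3 without 1 area. In small-nucleus cells it gave 9 with DESeq2, 2 with the row as a block, 5 among marker-majority cells, and 0 to 3 without 1 area. The difference in nucleus area was 273 to 421 square pixels without 1 area, where 3 against 2 areas allow no p under 0.2. Of the 24 readouts, 17 to 22 passed under the alternatives; without 1 area no readout can pass, since 5 areas allow no p under 0.0625.

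Some values changed sign. Igha was at -0.23 with cells from 20000 square pixels, -0.13 among marker-majority cells (also with matched cell area), -0.061 outside the nucleus of those, -0.73 at matched gene counts (adjusted p = 0.000301) and -0.0089 in control alone. Outside the nucleus Bax was at -0.030, Cd74 at 0.028, Hspb1 at -0.16 and Srsf2 at -0.074. Outside the nucleus of marker-majority cells Bax was at -0.099, Dcn at 0.17, Hsp90ab1 at 0.0010, Hspb1 at -0.14, Neat1 at -0.053, Sox9 at -0.035 and Srsf2 at -0.068, none called. At matched gene counts Gzma was at 0.050. At matched cell area, large-nucleus cells had 8.17 fewer counts outside the nucleus (difference -8.17, adjusted p = 0.118, exact permutation test) and a difference of -6.76 pixels in the distance to the fifth nearest cell (adjusted p = 0.0441, exact permutation test). The cause was not tested. The settings for the nucleus alone, for 1 genotype alone, for combined choices, for matched gene counts, for field edges and for groups per field of view were chosen after seeing the data.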
